A study of Homo sapiens with 6 samples.

Results

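The genes that write, copy, read and erase DNA methylation were followed in the human colorectal cancer line DLD-1 after transfection with siRNA against AHR, the gene of the aryl hydrocarbon receptor. The set held 10 genes of the 60483 listed in the count tables: DNMT1, UHRF1, UHRF2 and HELLS of maintenance methylation, DNMT3A and DNMT3B of de novo methylation, the methyl-CpG reader MBD2, and the erasers TET1, TET2 and TET3. They were chosen by name, with earlier results of these data known. Each matched 1 Ensembl gene ID, and all 10 passed the filter on low counts. RNA-seq libraries came from cells given control siRNA (3 libraries) or AHR siRNA (3 libraries), with cells of both groups grown in RPMI-1640 medium with fetal bovine serum. The labels name no genetic change in the line, and the sources used here give neither the siRNA sequences nor the time between transfection and harvest. The values are transcript levels, and DNA methylation itself was not measured.

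In mammals most CpG sites of the genome carry a methyl group on cytosine. After replication the UHRF1 protein binds sites methylated on the old strand only and brings in DNMT1, the maintenance methyltransferase, to copy the mark, while the chromatin remodeler HELLS opens packed chromatin to this machinery. DNMT3A and DNMT3B place new marks, MBD2 recruits the NuRD deacetylase complex to methylated CpG islands, and the TET dioxygenases oxidise the methyl group as a step towards its removal. Changes in CpG methylation are a known feature of colorectal cancer.

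The 6 libraries held 11567736 to 15037145 counts, and Pearson correlations of log2 CPM (counts scaled to library size) across tested genes were 0.991 to 0.994 within groups and 0.957 to 0.963 between them. AHR, the targeted gene, ranged from 117 to 144 CPM in the controls and from 87.4 to 95.8 CPM after AHR siRNA, or 70.8% of control (edgeR adjusted p = 1.98e-05). The 7 epithelial markers examined were present in all libraries. They summed to 11624 to 13143 CPM in control and 7997 to 8320 CPM in AHR siRNA libraries. The largest parts of that sum were KRT8 (means of 6359 CPM in control and 3902 CPM in AHR siRNA libraries) and KRT18 (2829 and 1756 CPM). Of the 7, 5 were called lower and 2 were not called, where 30.1% of all tested genes were called lower. Markers of fibroblasts summed to at most 2.62 CPM in control and 0.588 to 1.66 CPM in AHR siRNA libraries, those of leukocytes to 0.345 to 0.675 and 0.331 to 0.515 CPM, and those of endothelium to 1.31 to 1.95 and 2.13 to 2.40 CPM. At 0 in all libraries were 3 of 6, 1 of 5 and 1 of 4 of these markers, and COL1A1 (called lower) and VWF (called higher) were the only ones abundant enough to be tested. Separate cultures are not stated for the replicates, so the p-values measure only the spread between libraries, which may be technical. Values per library are given below in the order of replicates 1, 2 and 3.

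The promoters of DNMT1, UHRF1 and HELLS are shown first, since these are the maintenance genes that fell and the ones with an E2F word. They were thus picked on both traits. MBD2 was also called lower and held no E2F word. The stretches below run from 120 bases before the start of transcription to 30 bases from it on, taken from RefSeq on GRCh38.p14, and capitals mark exact matches to E2F words, the sites of cell cycle transcription factors. The words searched on both strands were TTTCCCGC, TTTGGCGC, TTTCGCGC and TTTGCCGC.
DNMT1 (chr19:10194924-10195073, minus strand): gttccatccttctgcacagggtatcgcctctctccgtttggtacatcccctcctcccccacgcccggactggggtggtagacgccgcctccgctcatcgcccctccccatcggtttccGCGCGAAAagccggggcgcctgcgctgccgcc
UHRF1 (chr19:4909381-4909530, plus strand): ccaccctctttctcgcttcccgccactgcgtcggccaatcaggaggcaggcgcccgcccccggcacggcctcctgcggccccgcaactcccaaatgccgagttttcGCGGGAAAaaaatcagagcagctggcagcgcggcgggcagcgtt
HELLS (chr10:94545668-94545817, plus strand): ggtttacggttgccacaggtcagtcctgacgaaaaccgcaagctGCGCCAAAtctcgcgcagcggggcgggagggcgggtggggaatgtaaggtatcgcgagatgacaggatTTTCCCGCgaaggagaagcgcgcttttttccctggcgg

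RefSeq gave 21 promoter windows of 300 bases (250 before the start and 50 from it on) for the 10 genes. An E2F word was found in 4 of these windows, for DNMT1 (1 match), UHRF1 (1 match at each of 2 starts) and HELLS (2 matches), 3 of the 10 genes. The DNMT1 match spans the start itself, and one of the HELLS matches ends just before it. Of all 35116 windows of this length, 3.31% held such a word, and of all 27305 genes with a window, 3.99%. Each E2F word searched holds CpG, and these shares were not matched for the CpG count of the windows. Among 27 genes of replication licensing and the replication fork, 24 had a window and 14 of these (58.3%) held the word. The AHR core word GCGTG was found in 8 of the 21 windows (38.1%), near the 36.5% of all windows. By gene these were DNMT1, UHRF1, UHRF2, TET1, TET3 and MBD2, 6 of 10, where 40.6% of all genes held the word in at least 1 window. The CCAAT box was in 7 of the 21 windows (33.3%) and the CHR words TTTGAA or TTCGAA in 3 (14.3%), near the 34.6% and 16.4% of all windows. The DNMT1, UHRF2, MBD2 and HELLS windows held 30, 26, 32 and 22 CpG, and that of DNMT3B 3, against a median of 14 over all windows. A match describes the letters in the window and is not a measured binding site. The part of the promoter words in the levels of the 10 genes was not tested.

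**Figure D1:**
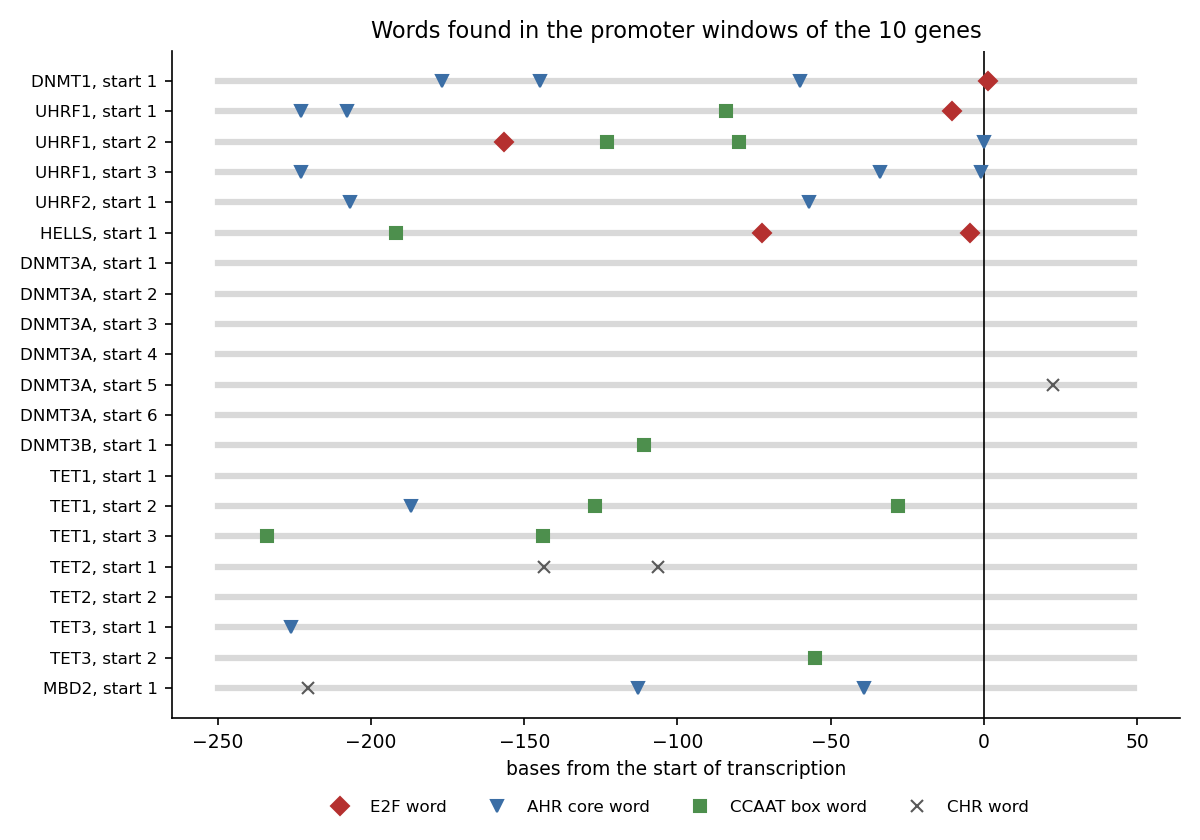
Positions of the searched words in the 21 promoter windows of the 10 genes. The horizontal axis gives bases from the start of transcription (line at 0), grey bars are the windows and symbols are word matches on either strand; among these 10 genes, E2F words appear for DNMT1, UHRF1 and HELLS.

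The data showed lower transcripts of the maintenance genes DNMT1, UHRF1 and HELLS and of the reader MBD2, and higher transcripts of DNMT3A and TET1, in AHR siRNA cells. The fitted levels were 50.2% of control for DNMT1, 47.7% for UHRF1, 47.6% for HELLS and 59.5% for MBD2. DNMT3A was at 173% and TET1, from a very low level, at 196% of control. UHRF2, DNMT3B, TET2 and TET3 did not pass the test. Of the 10 genes, 4 were called lower and 2 higher by edgeR at an adjusted p under 0.05, where 60.1% of the 14900 tested genes were called, 30.1% lower and 30% higher. The 6 of 10 genes called are thus near the share of all tested genes. The median log2 fold change of the 10 was -0.07, against 0.01 for all tested genes. In 6 of the 10 genes the groups did not overlap, as in 63.7% of tested genes.

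**Figure D2:**
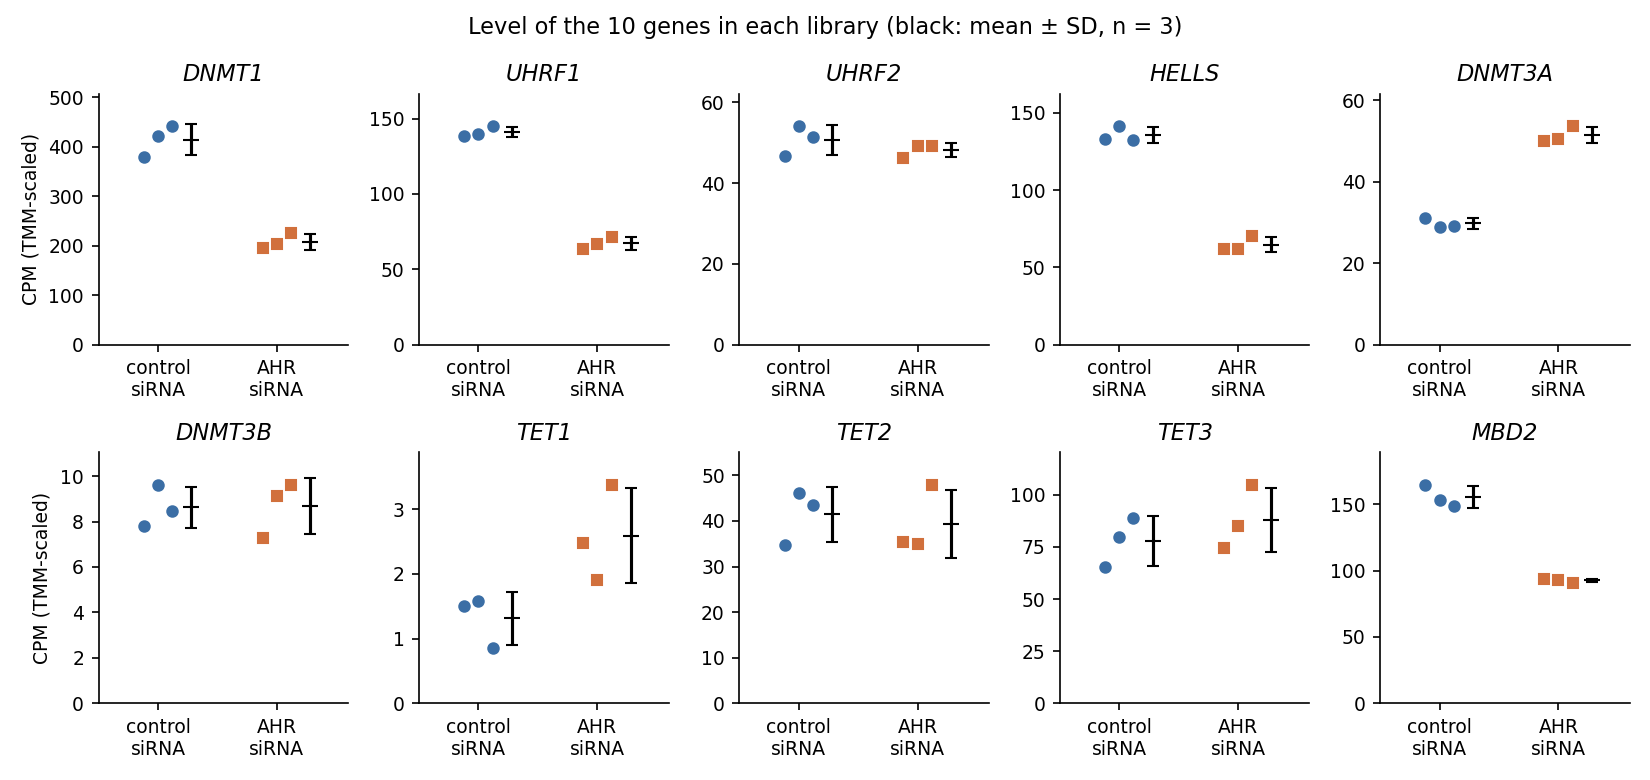
Level of each of the 10 genes in CPM (linear axes from 0), with 1 point per library and the mean ± SD of each group (n = 3) in black. The groups are apart for DNMT1, UHRF1, HELLS, DNMT3A, TET1 and MBD2 and overlap for UHRF2, DNMT3B, TET2 and TET3.

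DNMT1, the methyltransferase that copies the mark at replication, was the most abundant of the 10 genes. The controls measured 380, 422 and 441 CPM, and the AHR siRNA libraries 195, 202 and 226 CPM. Every AHR siRNA library lay below every control library. The means of 414 ± 31 and 208 ± 16 CPM (SD, n = 3 each) gave a log2 fold change of -0.99, with an SE of 0.07 and an edgeR adjusted p of 1.45e-09. DNMT1 (ENSG00000130816.13) lies on the minus strand at chr19:10133345-10231286 (GRCh38, GENCODE 29, as for all gene positions here). It shares 83 exon bases with S1PR2, a gene on the same strand with 120 to 170 counts per library, against 2358 to 6110 counts for DNMT1.

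UHRF1, which recognises hemimethylated CpG and recruits DNMT1, fell by a like amount. Its levels (ENSG00000276043.3, chr19:4903080-4962154, plus strand) were 138, 139.7 and 145 CPM with control siRNA, against 63.3, 66.6 and 71.6 CPM with AHR siRNA. The log2 fold change was -1.07 (SE 0.07, edgeR adjusted p = 1.87e-10), with a gap between the groups wider than the SDs of 3.5 and 4.2 CPM (n = 3 each). UHRF2, its paralog (ENSG00000147854.15, chr9:6413151-6507054, plus strand), measured 46.8, 54.1 and 51.5 CPM in the controls and 46.3, 49.1 and 49.3 CPM after AHR siRNA. These groups overlapped, and the 95% interval of the difference ran from 84.9% to 106% of control (log2 fold change -0.07, SE 0.08, edgeR adjusted p = 0.421). The ratio of UHRF1 to UHRF2 counts was 2.78 ± 0.19 in control and 1.39 ± 0.05 in AHR siRNA libraries (SD, n = 3 each).

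HELLS, the SNF2-family remodeler needed for methylation of repeats and other packed chromatin, lies at chr10:94501434-94613905 on the plus strand (ENSG00000119969.13). HELLS shares 438 exon bases with AL138759.1, a gene on the same strand with 0 to 4 counts per library, against 745 to 2046 counts for HELLS. Its controls measured 133, 141 and 132 CPM and its AHR siRNA libraries 61.7, 61.9 and 70.1 CPM, all below the controls. The log2 fold change was -1.07, with an SE of 0.07 and an edgeR adjusted p of 2.98e-10. UHRF1 and HELLS were called lower with a log2 fold change of -1 or less, as were 5.46% of the tested genes, and DNMT1 lay just short of that size.

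The 3 maintenance genes that fell are also genes of dividing cells, and replication genes moved with them. All 27 genes of a replication licensing and fork list were called lower, with a median log2 fold change of -1.17 and a range from -1.81 to -0.78. The list was chosen with earlier results of these data known, so this count and median are not an independent reference. CDC6 and MCM10, which load and start replication helicases, fell to 28.5% and 32.1% of control, while MCM5 and MCM4, subunits of that helicase, fell to 38.1% and 40.7%. Set against the mean log2 CPM of these 27 genes in the same library, UHRF1 changed by 0.12, HELLS by 0.12 and DNMT1 by 0.20 from control to AHR siRNA on the log2 scale. For UHRF1 this relative level was 0.41 to 0.53 in control and 0.50 to 0.67 in AHR siRNA libraries. The groups overlapped for all 3 genes on this measure. For DNMT1 the overlap was slight, with 1.87 to 2.13 in control and 2.12 to 2.33 in AHR siRNA libraries. The measure was added after the values were seen. Since the 27 genes fell, a gene with an unchanged level rises on it. MBD2 rose by 0.45, TET2 by 1.11, UHRF2 by 1.12, DNMT3B by 1.20 and TET3 by 1.37. DNMT3A rose by 1.98 and TET1 by 2.19. The replication genes' part in the falls of DNMT1, UHRF1 and HELLS was not tested. In bulk RNA, fewer cells that express a gene and less RNA per cell cannot be told apart.

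**Figure D3:**
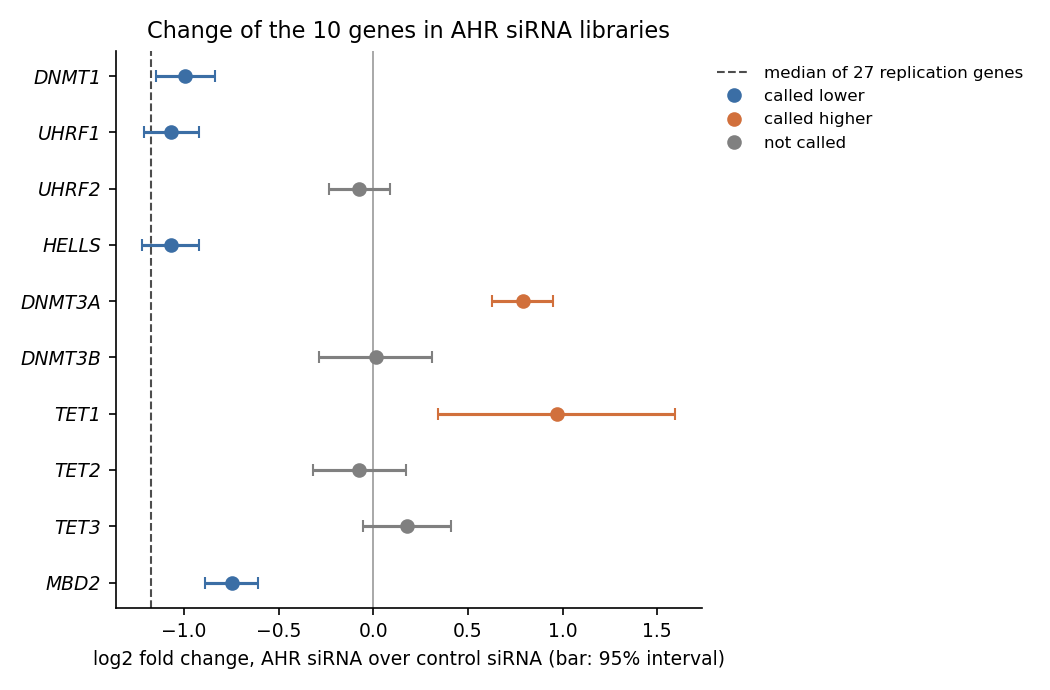
Fitted log2 fold change of each gene, AHR siRNA over control siRNA, with its 95% interval. Colours give the edgeR call and the dashed line is the median of the 27 replication genes (-1.17), which were listed with earlier results of these data known. The intervals of UHRF1 and HELLS reach the dashed line, and that of DNMT1 (-1.15 to -0.84) ends just short of it. DNMT3A and TET1 lie on the other side of 0.

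Of the de novo methyltransferase genes, DNMT3A was called higher and DNMT3B was not called. DNMT3A (ENSG00000119772.15, chr2:25227855-25342590, minus strand) measured 31.2, 28.9 and 29.2 CPM in control libraries against 50.1, 50.5 and 53.6 CPM in AHR siRNA libraries. Every AHR siRNA library was higher than every control library, and the log2 fold change was 0.79 (SE 0.08, edgeR adjusted p = 5.45e-08). DNMT3B (ENSG00000088305.17, chr20:32762385-32809356, plus strand) measured 7.80, 9.59 and 8.46 CPM with control siRNA and 7.29, 9.12 and 9.62 CPM with AHR siRNA. These groups overlapped almost wholly (log2 fold change 0.01, SE 0.14, edgeR adjusted p = 0.949), with a 95% interval from 81.9% to 124% of control. The ratio of DNMT3A to DNMT3B counts was 3.49 ± 0.50 in control libraries (SD, n = 3) and 6.88, 5.54 and 5.57 in the AHR siRNA libraries.

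Among the TET genes, TET1 (ENSG00000138336.8, chr10:68560656-68694482, plus strand) was the least abundant, with 20, 23 and 11 counts in the controls and 30, 26 and 46 counts after AHR siRNA. The means were 1.31 ± 0.41 and 2.59 ± 0.74 CPM (SD, n = 3 each), and the groups did not overlap. The log2 fold change was 0.97, with an SE of 0.30 and an edgeR adjusted p of 0.00897, and its 95% interval was wide, from 127% to 302% of control. The call rested on single libraries. Leaving out replicate 3 of the controls gave 0.73 with an edgeR adjusted p of 0.0528, and leaving out replicate 3 of AHR siRNA gave 0.73 with an edgeR adjusted p of 0.0725. Over the 16 alternatives the adjusted p lay between 0.00207 and 0.0725.

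TET2 and TET3, the more abundant TET genes, did not pass the test. TET2 (ENSG00000168769.11, chr4:105145875-105279816, plus strand) measured 34.7, 46.2 and 43.6 CPM in control and 35.3, 34.9 and 48.0 CPM in AHR siRNA libraries. Replicate 1 of the controls and replicates 1 and 2 of AHR siRNA were low, and the highest value was an AHR siRNA library. Its log2 fold change was -0.07 (SE 0.12, edgeR adjusted p = 0.606), with a 95% interval from 80.2% to 113% of control. TET3 (ENSG00000187605.14, chr2:73986404-74108176, plus strand) measured 65.2, 79.6 and 89.0 CPM with control siRNA against 74.5, 84.9 and 105 CPM with AHR siRNA. Its groups overlapped (log2 fold change 0.18, SE 0.11, edgeR adjusted p = 0.172; 95% interval 96.4% to 133% of control). TET3 was called higher with library totals alone (0.32, edgeR adjusted p = 0.0316) and with replicate 1 of AHR siRNA left out (0.28, edgeR adjusted p = 0.0467).

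MBD2, the reader that ties methylated islands to NuRD, lies at chr18:54151601-54224788 on the minus strand (ENSG00000134046.10). It measured 165, 153 and 148 CPM in control libraries and 93.8, 92.9 and 90.9 CPM in AHR siRNA libraries. All AHR siRNA libraries lay below all controls, and the log2 fold change was -0.75 (SE 0.07, edgeR adjusted p = 1.49e-08). The ratio of MBD2 counts to those of MBD3, its closest relative and the other MBD subunit of NuRD, was 2.64 ± 0.17 in control and 1.44 ± 0.09 in AHR siRNA libraries (SD, n = 3 each). The words GACTTAA and CACAACA were picked earlier on the fold changes of these same libraries, so their matches support nothing here. In the longest annotated 3' UTR of each gene (GENCODE 29), MBD2 and TET3 held GACTTAA and TET2 held CACAACA, while DNMT1, UHRF1, UHRF2, HELLS, DNMT3A, DNMT3B and TET1 held neither. Either word occurred in 16.2% of 19146 genes with a 3' UTR. The words' part in the values of these genes was not tested.

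In all, 5 ratios of related genes were compared between the groups: UHRF1 to UHRF2, DNMT3A to DNMT3B, TET1 to TET2, TET3 to TET2 and MBD2 to MBD3. The TET1 to TET2 count ratio was 0.0324 ± 0.0121 in control and 0.0652 ± 0.0091 in AHR siRNA libraries, and that of TET3 to TET2 1.88 ± 0.16 and 2.24 ± 0.17 (SD, n = 3 each). For each of the 5, the 3 AHR siRNA values lay on the same side of the 3 control values. Each two-sided exact permutation p was 0.1 (0.1 after Benjamini-Hochberg adjustment over the 5), which is the smallest p this exact test can give with 3 against 3 libraries, so it could not have passed 0.05 whatever the values.

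Levels per length, in CPM per kilobase of merged exons (GENCODE 29), placed DNMT1 first in control cells at 42.3 ± 3.2, followed by UHRF1 at 27.4 ± 0.7 and MBD2 at 26.7 ± 1.4 (SD, n = 3 each). The ranges of UHRF1 and MBD2 overlapped in control libraries, as did those of TET3 and UHRF2 and of TET2 and DNMT3A. HELLS came next at 13.4 ± 0.5, TET3 and UHRF2 were at 6.35 ± 0.98 and 5.12 ± 0.37, and TET2 and DNMT3A were at 2.52 ± 0.37 and 2.48 ± 0.11 on this scale. DNMT3B was at 1.86 ± 0.20 and TET1 last at 0.141 ± 0.044. In AHR siRNA libraries DNMT1 remained first at 21.2 ± 1.7 on the same per-length scale, MBD2 (15.9 ± 0.3) was above UHRF1 (13.1 ± 0.8) without overlap, and DNMT3A (4.28 ± 0.16) was above TET2 (2.39 ± 0.45) without overlap. HELLS (6.36 ± 0.47) overlapped TET3 (7.18 ± 1.26). Merged exon lengths count exons that these cells may not use, so the order between genes is approximate.

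Within the groups, some libraries were low or high for many of the 10 genes. Control siRNA replicate 1 had the lowest of the 3 control levels for 6 of the 10 genes, AHR siRNA replicate 1 the lowest of its group for 7, and AHR siRNA replicate 3 the highest of its group for 9. The second principal component of all tested genes held 8.35% of the variance, against 78.2% for the first. With control siRNA replicate 1 left out, the calls of the 10 genes were the same.

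The genes with a pattern most like DNMT1 and UHRF1 were found by the root mean square difference of log2(CPM + 0.5), centred on each gene's mean, over the 6 libraries. For DNMT1 these were NSD2 (difference 0.028), CEP72 (0.033) and BAZ1B (0.033), and for UHRF1 they were the lamin B2 gene LMNB2 (0.018), CCND1, the cyclin D1 gene (0.027), and DBR1 (0.027), among 10878 genes with a symbol and a mean of at least 5 CPM. HELLS ranked 16th and DNMT1 29th in likeness to UHRF1, and MBD2 ranked 752nd. All genes share the same 6 libraries and their scaling, and the difference between the groups enters the measure.

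The counts for the lists that follow are to be read against the 60.1% of all tested genes called, 30.1% lower and 30% higher. Among cofactors of maintenance methylation, 7 of 14 genes were called lower and 3 higher, with a median log2 fold change of -0.15. PCNA, the sliding clamp to which DNMT1 binds, fell from 343 ± 31 to 148 ± 10 CPM (SD, n = 3 each), or 43.0% of control. LIG1, the replicative DNA ligase that UHRF1 binds, fell to 46.5%, and SMCHD1, needed for methylation on the inactive X chromosome, to 52.8%. UBE2L6, an ISG15-conjugating enzyme gene, rose to 171% of control. PCNA and LIG1 are also replication genes.

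Among other methyl-CpG readers 4 of 9 genes were called higher and 1 lower, with a median log2 fold change of 0.12. These 5 of 9 are near the 60.1% of all tested genes called. MBD5 rose to 215% of control, the zinc finger reader gene ZBTB4 to 182% and MBD6 to 159%, while MBD4, the reader with a thymine glycosylase domain, fell to 77.6%. Of 12 other NuRD genes, 5 were higher and 4 lower (median -0.06). The histone-binding subunit genes RBBP4 and RBBP7 fell to 57.0% and 76.7% of control and MTA2 to 76.2%, whereas MTA1 rose to 182%, from 77.5 ± 7.7 to 141 ± 10 CPM (SD, n = 3 each).

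Of 11 listed regulators of de novo methylation and CpG island protection, 8 were tested, 4 were called lower and 3 higher (median -0.05). QSER1, which shields developmental promoters from de novo methylation, fell to 56.9% of control. NSD1, a histone methyltransferase whose mark draws in DNMT3A, rose to 129.7%, and the CpG island binders KDM2B and KDM2A rose to 141% and 132%. With library totals alone only 1 gene of this list was called lower. DNMT3L, the DNMT3 cofactor of germ cells, was not tested: it had 1 count over the 6 libraries.

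Of 18 genes that act with or after TET enzymes, 17 were tested, 8 were called higher and 5 lower (median 0.14). IDH2 and IDH1, isocitrate dehydrogenases whose product 2-oxoglutarate the TET enzymes consume, rose to 221% and 181% of control, IDH1 from 272 ± 14 to 493 ± 26 CPM (SD, n = 3 each). TDG, the glycosylase that removes oxidised methylcytosine, rose to 151%. NEIL3, a glycosylase gene of dividing cells, fell to 32.2% of control.

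Of 15 genes of methyl donor supply, 12 were tested, 5 were called higher and 5 lower (median -0.14). MAT2B, the regulatory subunit of S-adenosylmethionine synthetase, rose to 158% of control. MTRR, which reactivates methionine synthase, fell to 49.6% and the serine hydroxymethyltransferase gene SHMT2 to 69.4%. With library totals alone 3 genes of this list were called lower.

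**Figure D4:**
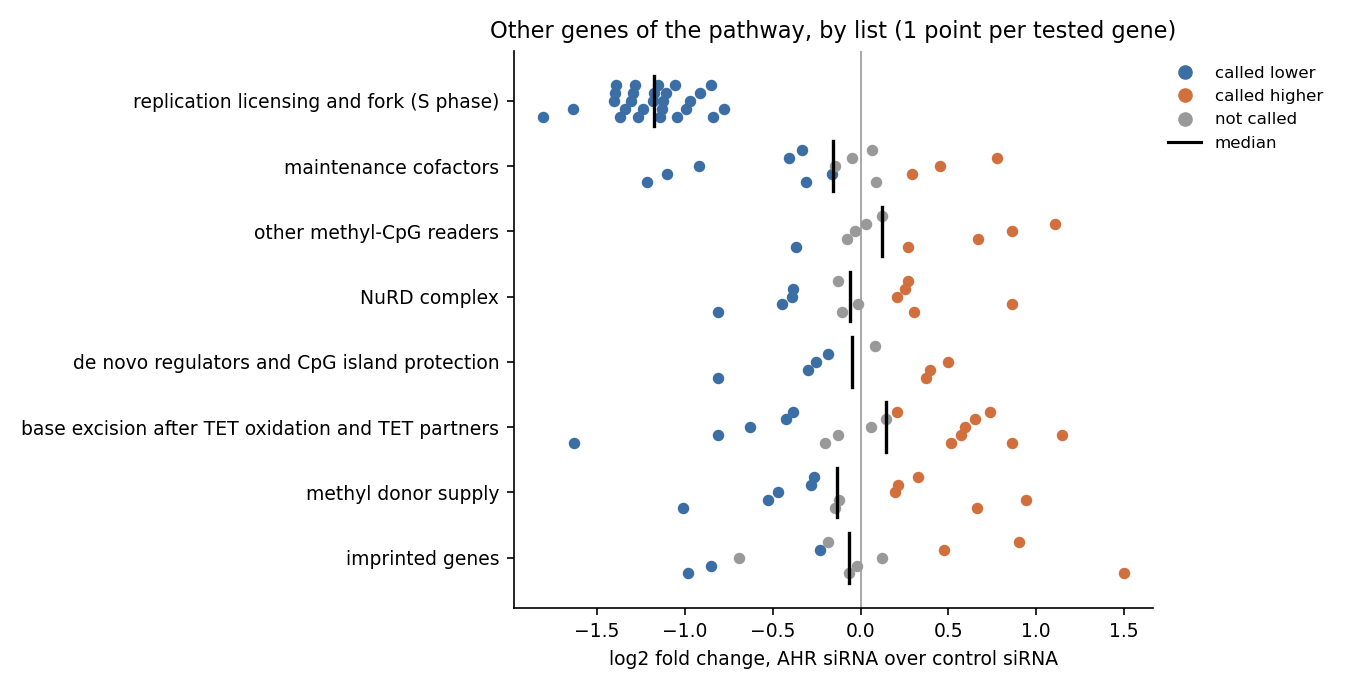
Log2 fold change of each tested gene in 8 lists around the pathway, 1 point per gene, coloured by the edgeR call, with the list median as a black bar. The replication list lies wholly below 0, and the other lists hold genes called in both directions.

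Germline and imprinted genes, many of which are known to be silenced by DNA methylation, were also described. Of 24 cancer-testis and germline genes, 15 had no count in any library, which allows up to 3 counts per library for each, and only STK31 was abundant enough to be tested. STK31 stood at 0.679 ± 0.255 CPM in control and 1.26 ± 0.24 CPM in AHR siRNA libraries (SD, n = 3 each, log2 fold change 0.88, edgeR adjusted p = 0.0446). It had only 78 counts over the 6 libraries, and its call lay just inside the threshold. The summed level of all 24 was 1.38 to 2.48 CPM in control and 1.82 to 2.79 CPM in AHR siRNA libraries, and these ranges overlapped. Of 21 imprinted genes, 11 were tested, 3 were called higher and 3 lower, and these 6 of 11 are near the 60.1% of all tested genes called. CDKN1C, a maternally expressed cell cycle inhibitor, rose to 283% of control (16.0 ± 0.8 to 45.1 ± 2.3 CPM) and L3MBTL1 to 187%. H19 and IGF2, neighbours under a shared imprinting control region, fell together to 55.3% and 50.5%. Reads from IGF2 and its read-through transcript with INS may be split by the counting, so its value is uncertain.

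The calls of DNMT1, UHRF1, HELLS, MBD2 and DNMT3A held in all 16 alternatives, with log2 fold changes from -1.06 to -0.85 for DNMT1, -1.12 to -0.92 for UHRF1, -1.13 to -0.92 for HELLS, -0.79 to -0.60 for MBD2 and 0.76 to 0.94 for DNMT3A. Library totals alone moved the median gene by 0.15 (log2), so values under that scaling are to be read relative to this shift.

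**Figure D5:**
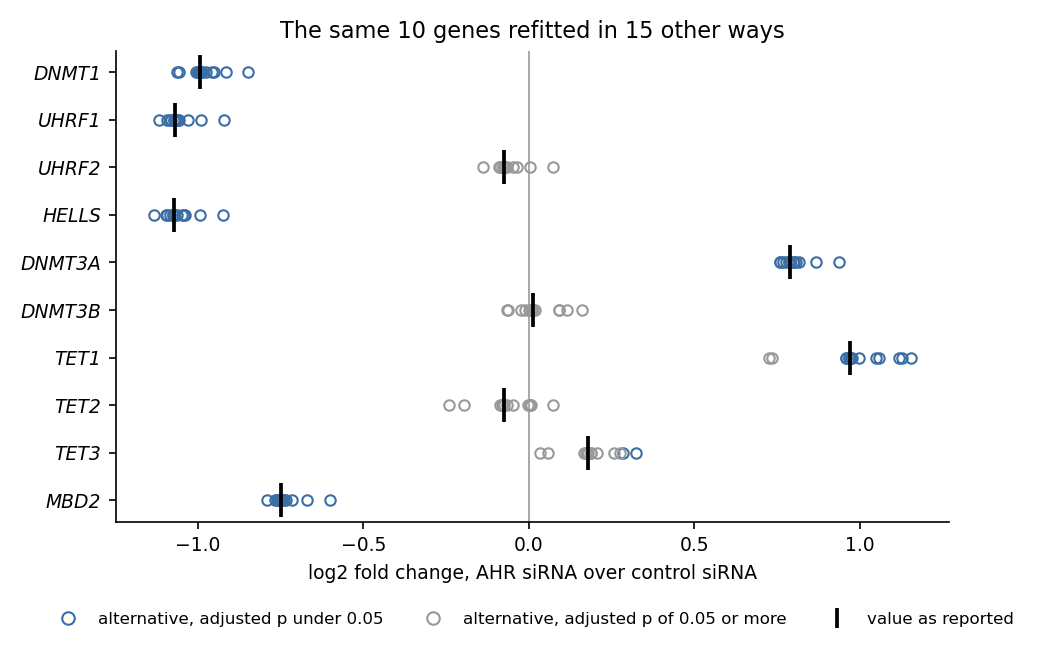
Log2 fold change of each of the 10 genes as reported (black bar) and in 15 refits (circles), blue where the adjusted p was under 0.05. DNMT1, UHRF1, HELLS, MBD2 and DNMT3A keep their side of 0 and their call, TET1 loses its call in 2 refits, and UHRF2, DNMT3B and TET2 fall on both sides of 0.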

How the data were processed

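The authors deposited raw counts per versioned Ensembl gene ID, in 1 table per library. The tools TopHat2 (2.0.11), TopHat and HTSeq and the builds hg19 and GRCh37 are listed, per the submitters' processing notes, without role or order. Since some IDs are of GRCh38 annotations, the build used for counting is uncertain. The sources used here do not give strandedness, RNA selection or the handling of multiply mapped reads.

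The counts went unchanged into edgeR (4.0.16, R 4.3.3): filterByExpr (14900 genes kept), TMM scaling (factors 0.926 to 1.06), a quasi-likelihood fit with group as its only term, and Benjamini-Hochberg adjustment over all tested genes. A gene was called at an adjusted p under 0.05. CPM values use the TMM-scaled library sizes. The SE of a log2 fold change is its size over the square root of F. The script was tested on simulated data in which a far smaller share of genes changed than was called here. That test does not check the scaling where changes are this broad. Library totals were 11567736 to 15037145 counts, and intervals cover the spread between these libraries.

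The members and lists were chosen with earlier results of these data known, and the ratios of related genes and the levels relative to replication genes were added after the values were seen. Named genes are AHR, the 10 members, up to 4 called genes with the smallest p in each list (all called genes where 3 or fewer were), and the 3 genes most like DNMT1 and UHRF1. A gene that this rule takes is not reported here. DNMT3L is named beside its list after its value was seen. Of the IDs, 41124 had a symbol in the gene name table. Promoters are from RefSeq (GRCh38.p14), exons and UTRs from GENCODE 29, matched by ID or symbol. Alternatives were other scalings, filters, DESeq2 1.42.0, limma-voom (limma 3.58.1), a stricter threshold of 0.01, a replicate block, the 20 most abundant genes left out of the scaling, and each library left out.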

Additional observations from a re-analysis of the deposited data

How the results depend on the processing

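Across all genes, the count of calls ranged from 7298 (adjusted p under 0.01) to 9598 (replicate block), against 8953 as reported, and 5885 of 9090 calls (64.7%) were higher with library totals alone and 5223 of 9004 (58.0%) with upper-quartile factors, against 4474 of 8953. Members called lower stayed at 4 in all 16 alternatives. Members called higher ranged from 1 to 3 with a library left out: 1 without control siRNA replicate 3 or AHR siRNA replicate 3, where TET1 lost its call, and 3 without AHR siRNA replicate 1. With library totals alone TET3 was called (0.32), and the count of members called higher was 3. The log2 fold changes that changed sign were all of genes not called. UHRF2 was at 0.0043 with upper-quartile factors and 0.072 with library totals alone, and TET2 at 0.0040 and 0.072 under the same settings. With 1 library left out, TET2 ranged from -0.241 to 0.0078 and DNMT3B from -0.0673 to 0.117.

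Replicate numbers are shared by the groups, but same-numbered libraries did not all deviate together. The correlations of deviations from the group means were 0.19, -0.04 and 0.15. With 3 libraries per group these values cannot settle whether same-numbered libraries are paired. With the replicate block, TET3 was called (log2 fold change 0.17, edgeR adjusted p = 0.0125), members called higher were 3, and no other member's call changed. In the lists, 5 cofactors of maintenance were higher with library totals alone (3 as reported), and 5 imprinted genes were lower with the replicate block (3 as reported). Methyl donor genes called lower numbered 3 with library totals alone (5 as reported). Lower regulators of de novo methylation numbered 2 with upper-quartile factors, without AHR siRNA replicate 1 and at the stricter threshold, and 1 with library totals alone (4 as reported). The cause of these differences was not tested. Depth limits TET1 most, with 11 to 46 counts per library.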
